A study of Mus musculus with 2 samples.

Results

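The mitochondrial genome encodes core subunits of the respiratory chain. The 10 genes described here are 6 of complex I (*mt-Nd1* to *mt-Nd6*), *mt-Cytb* of complex III and *mt-Co1*, *mt-Co2* and *mt-Co3* of complex IV. *mt-Nd4l*, also of complex I, is outside this list. The 10 genes were taken by name from the deposited counts, and all 10 had a row among 17774 genes. Counts of these genes were followed through every deposited well, to ask which wells held them and whether they varied together. Cones were sorted by GFP fluorescence, 1 cell into each well of a 96-well plate, from C57BL/6 mice that carried the *Pde6c* cpfl1 mutation crossed with the Chrnb4.eGFP line, in which the *Chrnb4* promoter drives the reporter. The uninjected library held 85 wells from retinae at postnatal day (PN) 24, and the GSK-J4 library held 66 wells from retinae of the same genotype and age, injected into the vitreous with 10 µM GSK-J4 at PN14, 10 days before collection. GSK-J4 inhibits the demethylases of histone H3 lysine 27. Both libraries share the cpfl1 mutation and the reporter, neither came from wildtype retinae, and no sham-injected library was analysed here. Column names of the GSK-J4 library hold the word adult although the labels give PN24 for both, and the study's text counts more GSK-J4 cells than were in the deposited counts.

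Cones are rich in mitochondria, which are packed in the ellipsoid below the outer segment and supply ATP for the ion pumps and for phototransduction. Both strands of the circular mitochondrial genome are transcribed as long RNAs that are cut into messenger, ribosomal and transfer RNAs. Messengers of the same strand thus start from a common precursor and then differ in their stability. Complex I takes electrons from NADH, complex III passes them from ubiquinol to cytochrome c, and complex IV hands them to oxygen.

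The 3′ ends of the coding sequences are shown because they bear on which reads can be counted to which gene. Each line gives the last 30 bases of a member, 5′ to 3′ on its own strand, from GENCODE vM21 on GRCm38, with the letters of the stop codon in capitals. *mt-Nd1* had the most counts, *mt-Nd5* and *mt-Nd6* end against each other on opposite strands, *mt-Cytb* lacks part of its stop codon in the genome, and *mt-Co2* has a nuclear copy.

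mt-Nd1: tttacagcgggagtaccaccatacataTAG
mt-Nd5: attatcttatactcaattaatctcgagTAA
mt-Nd6: tttattattatcgagattactcgagatTAA
mt-Cytb: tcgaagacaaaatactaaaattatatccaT
mt-Co2: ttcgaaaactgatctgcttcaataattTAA

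*mt-Nd4*, *mt-Cytb* and *mt-Co3* stop in a partial codon that the poly(A) tail completes, which is a textbook feature of mitochondrial messengers. *mt-Nd1* lies at chrM:2751-3707 and *mt-Cytb* at chrM:14145-15288, both on the plus strand. *mt-Nd6*, at chrM:13552-14070, is the only 1 of the 13 protein genes on the minus strand, and 28.1% of its letters are G against 5.97% C. It shares 14 bases with *mt-Nd5*, at chrM:13552-13565, fewer than the 45 bases of a read. No source says whether strand was used in the counting, so how reads touching these bases were assigned is not known. Nuclear copies on chromosome 1 matter more for other members. All of the 45-base stretches of *mt-Co2*, the read length of the study, also occur in another annotated transcript, as do 99.9% of those of *mt-Co3*, 98.0% of *mt-Nd3*, 62.4% of *mt-Nd4* and 53.8% of *mt-Co1*. The share was 9.66% for *mt-Nd5*, 9.15% for *mt-Nd2*, 0.273% for *mt-Cytb* and 0% for *mt-Nd1* and *mt-Nd6*. A set of 8 nuclear genes was looked up, on chromosome 1 except for *Gm29215*, a lincRNA gene on chromosome Y. Among them were *Gm28661* for *mt-Co2*, *Gm28437* for *mt-Co3* and *Gm29216* for *mt-Co1*. None of the 8 had a row in the counts. How reads with several matches were treated is not stated, so the levels of *mt-Co2*, *mt-Co3* and *mt-Nd3* are uncertain, and those of *mt-Nd4* and *mt-Co1* in part.

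The libraries differed in depth and in cone transcripts, and both facts stand beside every comparison of them. Uninjected wells held 861 to 98441 counts (median 8082) and GSK-J4 wells 431 to 15422 (median 2134.5). Each uninjected well had at least 6 counts of the 11 cone markers, which took 2.59% of the library, and all 11 were found. In the GSK-J4 library these markers took 0.210%, 5 of the 11 were at 0, and 51 of the 66 wells had no count of any, so the cone label is not borne out by the counts of most of these wells. Rod markers took 0.355% and 0.0254%, Müller glia markers 0.110% and 0.0311%, bipolar cell markers 0.0124% and 0.0137%, and microglia markers 0.000705% and 0.00283% of the uninjected and GSK-J4 counts. Of 4 erythrocyte markers 1 had a row, with 3 and 0 counts. With 1 library on 1 plate for each condition, plate and treatment cannot be told apart, no test between conditions was possible, and all intervals are 95% intervals that cover counting error only.

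A count of at least 1 of the 10 genes was present in all 85 uninjected wells and in 33 of the 66 GSK-J4 wells, or 35 with the other 3 mitochondrial protein genes included. The 10 genes took 11249 of the uninjected counts, 0.992% of the library (Clopper-Pearson interval 0.974 to 1.010%), and 663 of the GSK-J4 counts, 0.312% (0.289 to 0.337%). The share was thus 3.17-fold (2.94 to 3.44) higher in the uninjected library, or 5.70-fold (4.94 to 6.62) over the wells of plate columns 1 to 6 and 2.01-fold (1.83 to 2.21) over those of columns 7 to 12. Over single wells it ran from 0.0570% to 6.44% with a median of 0.823% in the uninjected library, and from 0% to 7.65% with a median of 0.00872% in the GSK-J4 library. No uninjected well had fewer than 5 counts of the members, whereas 33 of 66 GSK-J4 wells had none and 17 had exactly 1. The ranges of the libraries overlap at both ends, and the highest share of all was that of a GSK-J4 well, B03, with 43 of 562 counts.

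**Figure D1:**
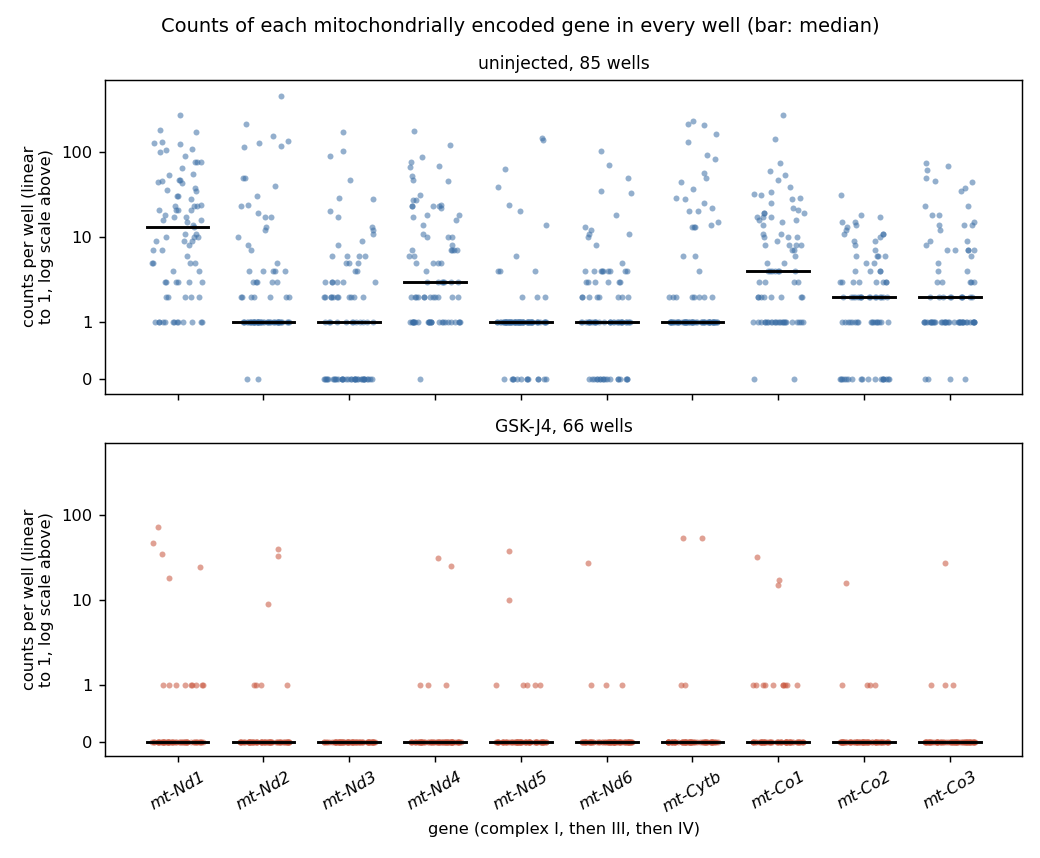
Each point is the count of 1 gene in 1 well, with the uninjected library above and the GSK-J4 library below, on an axis that is linear up to 1 and logarithmic above, and black bars are medians over wells. Uninjected counts fill the range up to 448, while GSK-J4 counts are 0, 1 or at least 9.

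The 6 members of complex I made up most of the members' counts, with 7319 in the uninjected library and 431 in the GSK-J4 library. These were 0.645% and 0.203% of all counts. *mt-Nd4l*, with 199 and 6 counts, is not included. *mt-Nd1*, a subunit of the membrane arm near the ubiquinone site, was the most abundant member, with 2705 counts (exact Poisson interval 2604 to 2809), found in 85 of 85 uninjected wells at 1 to 267 counts (median 13). In the GSK-J4 library it had 205 counts (178 to 235) in 14 wells, and at most 72 in any. *mt-Nd2*, also of the membrane arm, had 1719 counts (1639 to 1802) in 83 uninjected wells, with a median of only 1 and a maximum of 448, and 85 counts (67.9 to 105) in 7 GSK-J4 wells. The mean of *mt-Nd2* was therefore carried by few wells, and 19 wells with at least 9 counts held 93.4% of its uninjected counts.

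*mt-Nd4*, a proton-pumping subunit, had 1235 counts (1167 to 1306) in 84 uninjected wells, from 0 to 176 with a median of 3, and 59 counts (44.9 to 76.1) in 5 GSK-J4 wells. *mt-Nd5*, the largest of the pumping subunits, was found in 72 uninjected wells, but 58 of these had exactly 1 count and 2 wells, B02 and C03, had 144 and 138 of its 524. In the GSK-J4 library 37 of the 52 counts of *mt-Nd5* came from well A10. *mt-Nd6*, the minus-strand member, had 481 counts (439 to 526) in 67 uninjected wells, from 0 to 103, and 30 counts (20.2 to 42.8) in 4 GSK-J4 wells, 27 of them in D11. *mt-Nd3*, a small subunit of the same membrane arm, was absent from 34 uninjected wells, reached 172 counts in C12, and had 655 counts (606 to 707) in all. It had 0 counts in the 66 GSK-J4 wells, with an exact upper limit of 3.69 counts over that library. Set to a floor of 3 counts it was 40.9-fold lower in the GSK-J4 library. The exact interval, which also covers the error of both counts, has its lower limit at 33.1-fold. No other member was without a count there.

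*mt-Cytb*, the subunit of complex III that the mitochondrial genome encodes, had 1597 counts (1520 to 1677) in 85 of 85 uninjected wells. Its median was 1 and its maximum 231, since 52 wells had exactly 1 count and 22 wells had at least 9. In GSK-J4 wells it had 108 counts (88.6 to 130), of which 53 came from well B09 and 53 from well F05. *mt-Co1*, the catalytic subunit of complex IV with its heme and copper site, had 1281 counts (1212 to 1353) in 83 uninjected wells (0 to 273, median 4) and 74 counts (58.1 to 92.9) in 13 GSK-J4 wells. *mt-Co2*, which accepts electrons from cytochrome c, was the least abundant, with 334 counts (299 to 372) in 67 uninjected wells and no well above 31, and 20 counts (12.2 to 30.9) in 5 GSK-J4 wells. *mt-Co3* had 718 counts (666 to 772) in 81 uninjected wells, up to 74, and 30 counts (20.2 to 42.8) in 4 GSK-J4 wells, 27 of them in C02.

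Per kilobase of coding length, the order among uninjected counts was *mt-Nd1* (2827 counts per kilobase), *mt-Nd3* (1882), *mt-Nd2* (1656), *mt-Cytb* (1396), *mt-Nd6* (927), *mt-Co3* (916), *mt-Nd4* (896), *mt-Co1* (829), *mt-Co2* (488) and *mt-Nd5* (287). Neighbours from *mt-Nd6* to *mt-Co1* in this order had overlapping counting intervals, and the order changed from well to well. Median detection was lower at equal depth, in uninjected wells most of all. With every well thinned to 861 counts, which left out 15 GSK-J4 wells and no uninjected well, a member was found in a median of 36.5% of uninjected and 4.90% of GSK-J4 wells, against 96.5% and 7.58% at full depth.

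On the natural log scale of Seurat v.2, the package named in the study's methods, with log-folds taken from the mean counts per 10000 plus 1, all 10 members were lower in GSK-J4 wells, by more than 0.3 each. Among the 7773 genes found in 10% or more of the wells of either library, 23.6% were lower by as much, and the median log-fold was -1.34 for the members against -0.0035 for all these genes. The split over all these genes was 23.6% lower and 20.3% higher as means over wells, and 22.8% and 19.3% with summed counts. Median-ratio scaling of the summed counts changed it to 29.2% and 5.62%, while all 10 members stayed lower by more than 0.3. The log-folds were -1.65 for *mt-Nd3*, a value set by the added 1 since this gene had no GSK-J4 count, -1.62 for *mt-Nd4*, -1.57 for *mt-Co3*, -1.38 for *mt-Co2*, -1.35 for *mt-Cytb*, -1.33 for *mt-Nd6*, -1.06 for *mt-Nd2*, -1.01 for *mt-Nd1*, -0.82 for *mt-Co1* and -0.59 for *mt-Nd5*. *mt-Nd5* was the exception within the plate, with -1.48 over the wells of columns 1 to 6 and 0.43 over those of columns 7 to 12, where A10 lies. The 3 mitochondrial protein genes outside the list were lower too, with log-folds of -2.30 for *mt-Atp6*, -1.71 for *mt-Atp8* and -0.88 for *mt-Nd4l*. Nuclear subunits of the same complexes and of ATP synthase, 75 genes in all, took 3.61% of the uninjected and 0.173% of the GSK-J4 counts. The members' GSK-J4 share rests on the 20 values of at least 9 described below, and the other 43 counts were 0.0203% of the library.

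The GSK-J4 counts lay in few wells and in few genes of each well. Of the 663 counts, 3 wells held 50% and 9 wells held 90%, whereas the uninjected library needed 10 and 40 wells. Among 660 values of a member in a GSK-J4 well, 597 were 0, 43 were 1, none lay between 2 and 8, and 20 lay between 9 and 72, which together held 93.5% of the counts. Of all nonzero values over all genes in this library, 19.8% lay between 2 and 8 and 3.30% were 9 or more. In uninjected wells the members' 758 nonzero values were spread over these classes, with 313 at 1, 232 from 2 to 8 and 213 of 9 or more.

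**Figure D2:**
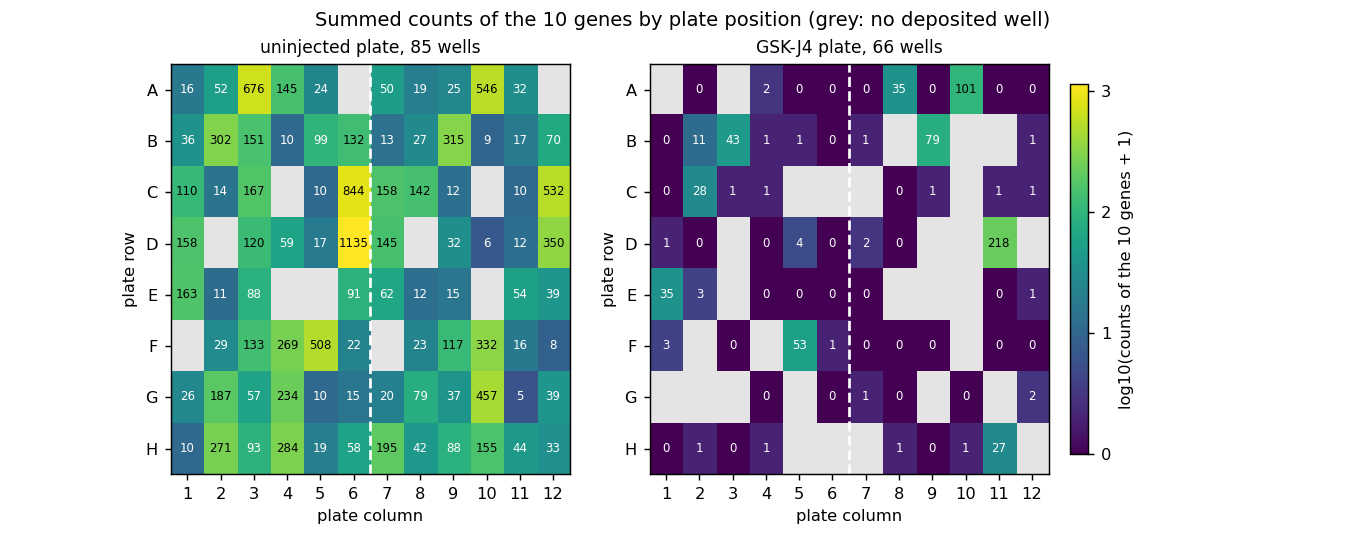
Summed counts of the 10 genes in each well of the uninjected plate (left) and the GSK-J4 plate (right), by plate row and column, with colour on a log10 scale and grey at positions not used here. Most GSK-J4 wells show 0 or 1, and the 10 wells with at least 9 lie scattered over the plate, up to 218 in D11.

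In well D11, the deepest of the GSK-J4 library with 15422 counts, 218 mitochondrial counts were spread over 7 members, with 72 of *mt-Nd1*, 39 of *mt-Nd2*, 32 of *mt-Co1*, 31 of *mt-Nd4*, 27 of *mt-Nd6*, 16 of *mt-Co2* and 1 of *mt-Cytb*. It had no cone marker count. The other wells held 1 to 3 members at such levels. A10 had 47 counts of *mt-Nd1*, 37 of *mt-Nd5* and 17 of *mt-Co1*, and B03 had 18 of *mt-Nd1*, 15 of *mt-Co1* and 9 of *mt-Nd2*. B09 had 53 of *mt-Cytb* and 24 of *mt-Nd1*, while in F05 all 53 mitochondrial counts of these genes were *mt-Cytb*. A08 likewise held 35 counts of *mt-Nd1* and of no other member. The last 4 wells were led by *mt-Nd2* (33 of 35 in E01), *mt-Co3* (27 of 28 in C02), *mt-Nd4* (25 of 27 in H11) and *mt-Nd5* (10 of 11 in B02). Of these 10 wells, C02 had 303 and F05 37 cone marker counts, and each of the others had 0 or 1. In C02 and in F05 all of these counts came from 1 of the 11 markers. No GSK-J4 well had counts of more than 2 of them. By contrast *mt-Atp6*, *mt-Atp8* and *mt-Nd4l* were never above 1 count in a GSK-J4 well, with 5, 6 and 6 counts in all.

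Concentration in the top well was not particular to these genes. Of genes with at least 20 counts in the GSK-J4 library, 70% had at least 30% of their counts in 1 well, and so did all 9 members tested (35.1 to 90%, median 52.5% against 40.9% over all genes). In the uninjected library 49.2% of such genes did, but none of the 10 members, whose top well held 9.28 to 27.5% of their counts (median 17.9% against 29.6%). In the uninjected library the top well thus held a smaller part of the members' counts than of the median gene. The genes compared were not matched to the members for their number of counts.

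A total of 57 plate positions held a well in both libraries, and no column of counts was identical between libraries. Of the 66 GSK-J4 wells 57 lay at such positions, and so did all 20 GSK-J4 values of 9 or more, which came from 10 wells. For 4 of these 20 values (20%) the uninjected well at the same position was among the 3 highest of the 57 for the same gene. The share was 4.92% of such values over all genes. These genes were not matched to the members for their uninjected counts, so the shares are not like for like. Well A10 had 47 counts of *mt-Nd1* in the GSK-J4 and 267 in the uninjected library, F05 had 53 and 231 of *mt-Cytb*, B09 had 53 and 212 of *mt-Cytb*, and B02 had 10 and 144 of *mt-Nd5*. Each pair thus puts a high treated well on a position that was high for that gene in the other library. The other 16 values had no such partner, as in D11, whose uninjected counterpart had 2 counts of *mt-Nd1* and 0 of *mt-Nd6*. Over the 57 positions the summed counts of the members had a rank correlation of 0.10 between libraries and the well totals one of -0.11. What the shared positions contribute was not tested.

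Within the uninjected plate, the make-up of the mitochondrial counts differed from well to well. In 7 wells with 5 to 16 counts the highest members were tied. Of the other 78 wells *mt-Nd1* led in 31, *mt-Co1* in 15, *mt-Cytb* in 8, *mt-Nd2* in 7, *mt-Nd3* and *mt-Nd4* in 5 each, *mt-Nd5* in 3, *mt-Nd6* in 2, and *mt-Co2* and *mt-Co3* in 1 each. The leading gene took 18.2 to 90% of the members' counts of these wells (median 38.7%) and more than 50% in 19 of them. Of the 120 counts in D03, 90% were *mt-Nd1*, of the 167 in C03 82.6% were *mt-Nd5*, of the 158 in D01 79.7% were *mt-Nd2*, and of the 315 in B09 67.3% were *mt-Cytb*. The wells with most counts also had different leading genes. D06, with 1135, had 448 of *mt-Nd2*, 273 of *mt-Co1* and 127 of *mt-Nd1*, while C06, with 844, had 176 of *mt-Nd4*, 161 of *mt-Cytb*, 142 of *mt-Co1*, 124 of *mt-Nd1* and 101 of *mt-Nd3*. Both thus held much *mt-Co1* and *mt-Nd1*, but C06 had 23 counts of *mt-Nd2*.

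**Figure D3:**
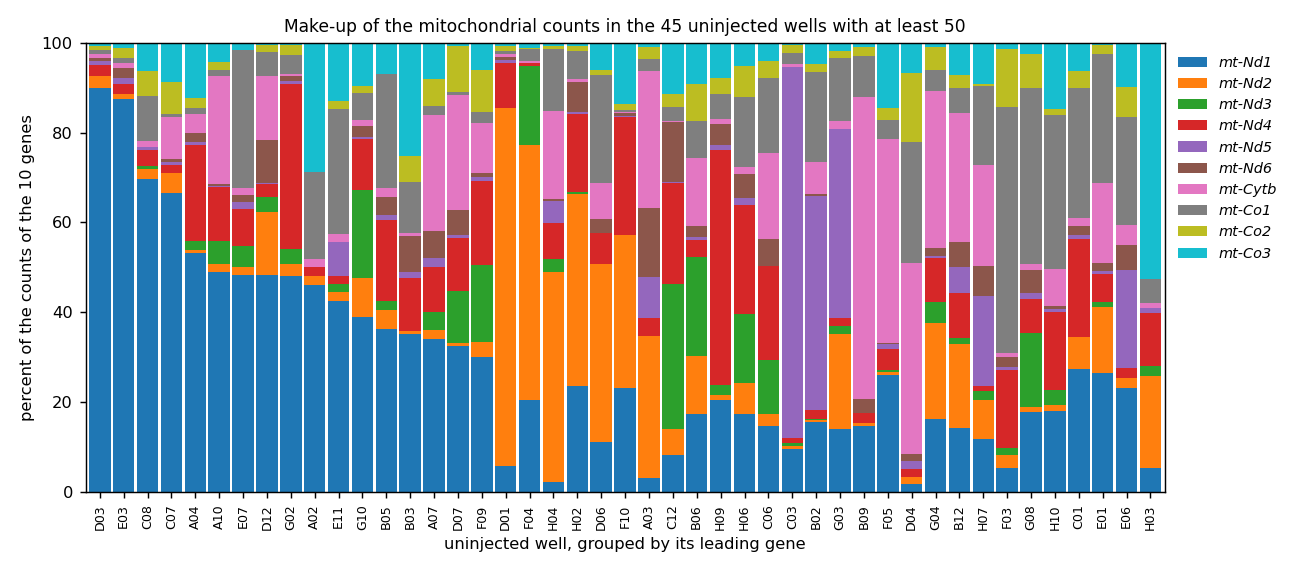
Each bar is an uninjected well with at least 50 counts of the 10 genes (45 wells), divided by gene as percent of those counts and grouped by the leading gene. The leading gene and its share change between wells, from 90% *mt-Nd1* in D03 to 82.6% *mt-Nd5* in C03.

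The members varied together only weakly. Over the 85 uninjected wells, which share a plate and differ in depth, the Spearman correlation of the percent of counts had a median of 0.14 over the 45 pairs of members (-0.13 to 0.49), with 9 pairs below 0 and 11 above 0.3. Over all pairs of the 742 genes found in at least 50% of these wells, members among them, the median was 0.084, with the 10th and 90th percentiles at -0.10 and 0.27. The highest values joined *mt-Nd1* with *mt-Co3* (0.49), *mt-Cytb* with *mt-Co1* (0.41) and *mt-Cytb* with *mt-Co3* (0.39). After thinning these were 0.36, 0.24 and 0.25, while the median over the 45 pairs was 0.16. Of the 11 pairs above 0.3 there were 4 within 1 complex, as are 18 of all 45 pairs. *mt-Nd3* had values from -0.13 to 0.060 with the other members (-0.064 to 0.19 after thinning, -0.17 to 0.12 in columns 1 to 6 and -0.20 to 0.31 in columns 7 to 12), and a correlation of 0.37 with the well total where 6 members were negative, from -0.28 for *mt-Nd2* to -0.12 for *mt-Nd1*. Without *mt-Nd3* the median was 0.22. For a gene at exactly 1 count, the percent of counts falls as the well total rises. That was so in 58 wells for *mt-Nd5*, 52 for *mt-Cytb* and 44 for *mt-Nd2*, while *mt-Nd3* was at 0 in 34. Beyond the thinned values, what these single counts add to the correlations was not tested. *mt-Nd5* and *mt-Nd6*, whose ends overlap, had a correlation of only 0.13. Outside the list, *mt-Atp6* had 0.52 with *mt-Cytb* and 0.50 with *mt-Atp8*, whose reading frames overlap by 43 bases, but these were 0.12 and 0.10 after thinning.

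**Figure D4:**
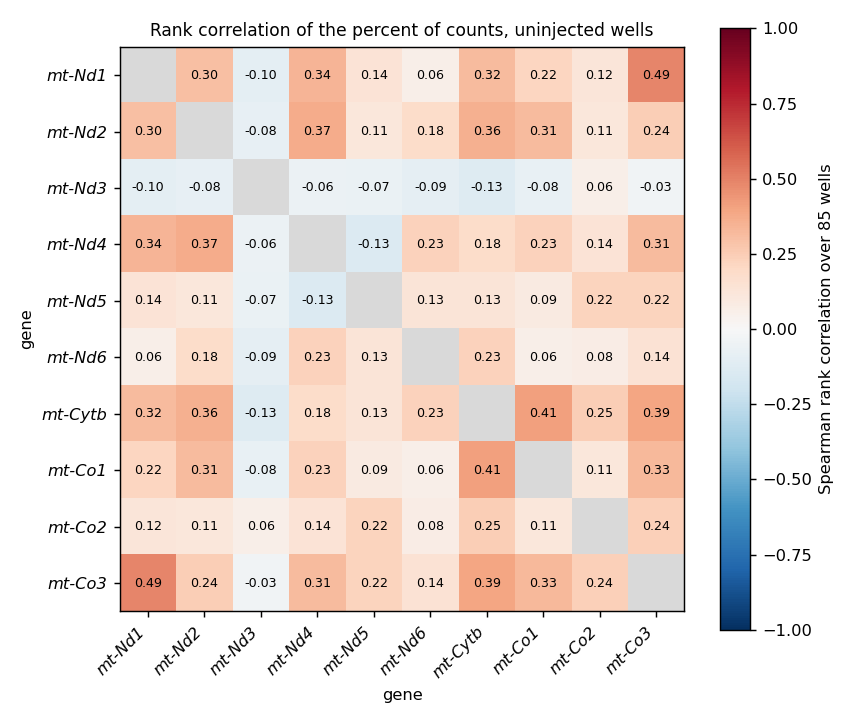
Spearman rank correlation over 85 uninjected wells for each pair of the 10 genes, as percent of the counts of the well, with the value in each cell and colour from -1 to 1. The row of *mt-Nd3* is near or below 0, and the highest value is 0.49 for *mt-Nd1* with *mt-Co3*.

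The sum of the members had a rank correlation of 0.48 with the nuclear subunits, 0.29 with the cone markers and -0.17 with the well total over the same 85 wells. Of 729 other genes found in at least 50% of uninjected wells, the 5 most like the sum were *Pde6h* (0.46), the inhibitory subunit of the cone phosphodiesterase, *Opn1mw* (0.42), the M-cone opsin, *Chchd2* (0.41), a mitochondrial protein with twin cysteine motifs, *Gapdh* (0.40), a glycolytic enzyme, and *Tma7* (0.39), a protein associated with the translation machinery. The median over the 729 genes was -0.12. After thinning *Gapdh* fell to 0.22, and in columns 1 to 6 *Tma7* had 0.15 and in columns 7 to 12 *Chchd2* had 0.19, while *Pde6h* lay between 0.42 and 0.46 in each.

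The sides of the uninjected plate differed in mitochondrial RNA. In the 42 wells of columns 1 to 6 the members took 1.21% of the counts (0.246 to 6.44% by well, median 1.08%), and in the 43 wells of columns 7 to 12 0.774% (0.0570 to 4.05%, median 0.581%), with overlapping ranges. Median depths were 8739.5 and 7175 counts. Lower by more than 0.3 on the log scale in columns 7 to 12 were 5 members, against 18.4% of 6863 genes, and higher was 1, *mt-Cytb*, against 17.3%. The median log-fold of the members was -0.32, and -0.0061 over all genes. *mt-Nd2* had a mean of 27.6 counts per 10000 in columns 1 to 6 and 7.12 in columns 7 to 12, *mt-Nd5* 12.9 and 3.73, and *mt-Co1* 23.0 and 9.87. *mt-Nd6* and *mt-Co2* were lower by 0.46 and 0.51 on the log scale, while *mt-Nd1*, *mt-Nd3*, *mt-Nd4* and *mt-Co3* stayed within 0.3. *mt-Cytb* was higher by 0.41 on the log scale as a mean over wells, but it had 968 and 629 counts, so its direction turned to -0.40 with summed counts, and those of *mt-Nd3* from -0.15 to 0.49, of *mt-Nd1* from -0.17 to 0.047 and of *mt-Nd4* from 0.034 to -0.19. *mt-Co2* was lower by no more than 0.3 then (-0.26). Single wells weighed in the mean of *mt-Nd5*, whose median share was 0.0117% and 0.00961% on the sides. In the GSK-J4 library the order of the sides was the other way round, at 0.212% in columns 1 to 6 and 0.385% in columns 7 to 12, the side that holds D11. What the side of the plate stands for is not given in the labels.

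**Figure D5:**
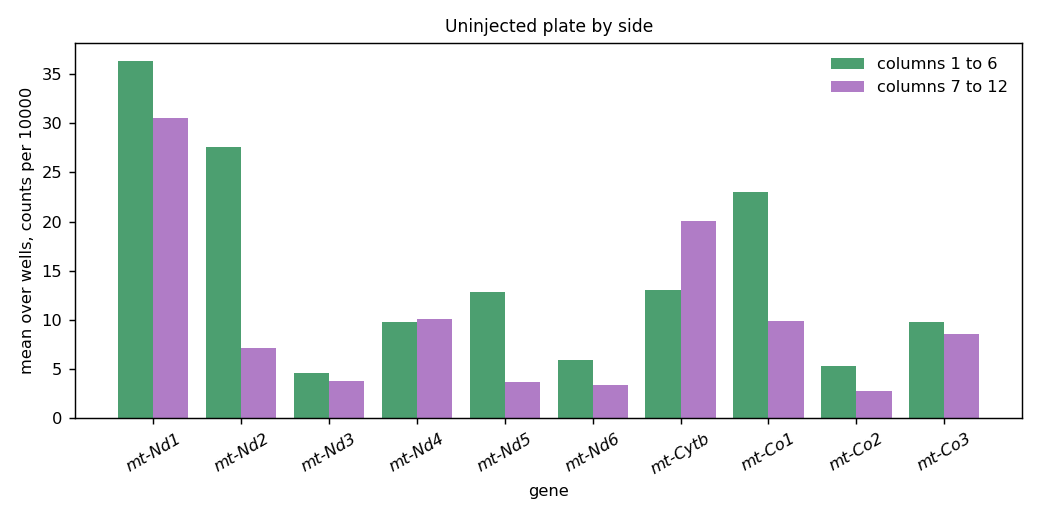
Mean counts per 10000 of each gene over the 42 uninjected wells of columns 1 to 6 and the 43 of columns 7 to 12, as bars from 0. *mt-Nd2*, *mt-Nd5* and *mt-Co1* are higher in columns 1 to 6 and *mt-Cytb* is higher in columns 7 to 12.

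Wells with over 5% mitochondrial counts, past the filter limit stated in the study's methods, were 3 in the uninjected and 2 in the GSK-J4 library. The study's text gives 85 untreated cones after quality control, as many as the deposited uninjected wells. The filter as applied here left 82 of these, so whether the study removed the 3 wells is not known. Wells over 5% weighed differently in the libraries. The uninjected wells A03, E06 and F04 held 676, 91 and 269 counts, 9.21% of the members' total, with 8 or 9 members found in each and 17 to 553 cone marker counts. The GSK-J4 wells A10 and B03 held 101 and 43 counts, 21.7% of the total, with 1 and 0 cone marker counts. Without these wells the shares were 0.916% and 0.247%. Among the members the filter moved *mt-Co1* most, from a log-fold of -0.82 to -1.93, and then *mt-Nd1*, from -1.01 to -2.08.

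Genes that transcribe, replicate and process the mitochondrial genome had few counts in either library. Of 30 listed, 25 had a row. These summed to 732 counts in the uninjected and 206 in the GSK-J4 library, or 0.0645% and 0.0971%. *Supv3l1* alone gave 3 of the 732 and 76 of the 206. Of the 12 found in at least 10% of the wells of either library, 3 were lower by more than 0.3 and 1 was higher, against 23.6% and 20.3% of all genes, and their median log-fold was -0.10. The 5 with most uninjected counts, with *Elac2* tied with *Grsf1* in the last place, were *Polg*, the DNA polymerase of mitochondria (150 and 11 counts, log-fold -0.18), *Fastkd3*, an RNA-binding protein of mitochondria (103 and 16, -0.28), *Mterf1a*, a termination factor (88 and 18, -0.33), *Mterf4*, which acts in mitochondrial ribosome assembly (80 and 4, -0.42) and *Elac2*, which trims the 3′ ends of transfer RNAs (69 and 9, 0.022). The higher gene was *Supv3l1*, a helicase of the mitochondrial RNA-degrading complex, which went from 3 to 76 counts between uninjected and GSK-J4 wells (log-fold 1.85), and the last of the lower genes was *Grsf1*, an RNA-binding protein of mitochondrial RNA granules, with 69 and 0. *Polrmt*, the mitochondrial RNA polymerase, had 4 counts in each library, and *Tfam*, which packs and transcribes the genome, 20 and 7. These last 4 genes were named after their values were seen.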

How the data were processed

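Members and gene lists were chosen with earlier results of these data known. Per the study's methods, the authors aligned 45-nt reads in the CLC Genomics Workbench, removed PCR duplicates by UMI and position, used featureCounts with Gencode M17 for the counting and added the counts of the 3′ and 5′ reads. The genome is named there as GRCh38, a human build number. The authors deposited raw counts, whole numbers without normalization, for 17774 genes and 151 wells. No count column was left unused.

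All deposited wells entered the main values, with no filter, no batch correction and no doublet caller. Counts per 10000 were averaged over wells, and log-folds are natural logs of the mean plus 1, GSK-J4 minus uninjected, with a limit of 0.3. Wells are not replicates, so no test was run. Intervals are exact Poisson for counts and Clopper-Pearson for shares. A member without a count was set to a floor of 3 counts per library. Named genes were all members, the 5 genes most like their sum, the 5 of the mitochondrial expression list with most uninjected counts (a tie broken by list order), the other mitochondrial protein genes and their nuclear copies. *Supv3l1*, *Grsf1*, *Polrmt* and *Tfam* fall outside this rule. Calculations were tested on simulated data. Scripts used scipy 1.17.1, numpy 2.4.6 and pandas 2.3.3 under Python 3.11.15. Alternatives were the filter of the study (genes in 3 or more wells, wells with 200 or more genes and no more than 5% mitochondrial counts), summed counts, a pseudocount of 0.1, median-ratio scaling, thinning to 861 counts, leaving out the top well of each library, and each plate side. Positions and sequences come from GENCODE vM21 on GRCm38, the mouse build that Gencode M17 annotates.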

Additional observations from a re-analysis of the deposited data

How the results depend on the processing

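No paired analysis was possible because each condition had 1 library. The members' median log-fold of -1.34 was -0.96 with summed counts, -1.78 with a pseudocount of 0.1, -1.42 without the top well of each library, -1.53 in columns 1 to 6 and -1.11 in columns 7 to 12. Median-ratio scaling, done on summed counts, moved the median of all genes by -0.11. The members then lay at -1.28 relative to it, against -0.95 with summed counts alone. Of 80 values of single members over 8 settings, 79 were negative, 51 moved by less than their counting error and 28 by more, and the log-fold of *mt-Nd5* in columns 7 to 12 turned to 0.43. The 51 include *mt-Nd3*, from -1.65 to -3.76 with a pseudocount of 0.1, since a gene at 0 counts has no lower limit for its log-fold. Well A10 held 37 of the 52 GSK-J4 counts of *mt-Nd5*. The uninjected share of 0.992% was 0.917% under the filter, 0.924% without the top well, 1.21% in columns 1 to 6 and 0.774% in columns 7 to 12, and the GSK-J4 share of 0.312% was 0.249%, 0.226% without D11, 0.212% and 0.385%. The median detection in uninjected wells, 96.5%, was 36.5% after thinning and 48.8% for at least 2 counts. *mt-Nd1* took 24.05% of the uninjected member counts, 23.1% as a median over wells with at least 50, and 19.2% and 31.6% on the plate sides. The other medians of correlations and plate sides and the numbers of wells that held 50% and 90% of the counts moved by less than the limits set for them. Low depth of the GSK-J4 wells limits statements on members at 0 or 1 count.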

Other observations

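Exact single counts were common in the uninjected library for some members. *mt-Nd5* had exactly 1 count in 58 wells and 2 to 8 in 7, *mt-Cytb* in 52 and 11, and *mt-Nd2* in 44 and 20, whereas *mt-Nd1* had 1 count in 13 wells and at least 9 in 51. Over the 50 genes found in at least 95% of uninjected wells, 6 of which are members, a median of 13.1% of the nonzero values were 1. *mt-Atp6*, found in 85 of 85 wells, had 1 count in 7 wells and 2 to 8 in 44.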
